A study of Mus with 6 samples.

Results

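The genes described here are regulators and executioners of apoptosis together with genes that the tumour suppressor p53 controls or answers to. They were chosen by gene symbol from a rule that names the Bcl2, Casp, Gadd45, Btg, Phlda, Dram, Pdcd and Hipk families and single genes such as Bax, Apaf1, Fas, Xiap, Mdm2 and Zmat3. Of 96 mouse genes that the rule names, 49 were analysed, out of 11659 genes in the table of read counts. Another 15, among them Bcl2, Bak1, Bad, Bcl2l2, Fas, Plk2 and Trp63, lie in rows whose counts may belong to another gene and were left out, and 32, among them Bax, Pmaip1, Mdm4, Sesn1, Btg2 and Perp, were not analysed here. The 49 come from a pair of stretches of Ensembl identifiers in which exon length went with the count of the same row (Spearman's rho 0.25 and 0.295 across genes) and hardly with that of an adjacent row (rho at most 0.041).

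RNA was sequenced from primary chondrocytes of mouse knee cartilage on a C57BL/6J background, with 3 WT samples and 3 samples of mice that lack Sirt6 in cartilage (Sirt6 cKO). All mice were 12 weeks old. According to the study's methods, its experiments used cultured chondrocytes at first passage. The cKO carries Sirt6 flox/flox alleles and a tamoxifen-inducible Cre recombinase driven by the Col2a1 promoter (Col2a1-CreER T2), so that deletion is restricted to cells in which this cartilage collagen promoter was active when tamoxifen was given. The labels call the controls wild type, and whether the controls of these samples carried the floxed alleles or the Cre is not stated for this experiment. Whether they received tamoxifen is not stated either, though in another experiment of the study the WT controls did, as did the cKO and floxed animals. The study's wording can be read as a separate mouse for each sample, but the labels do not tie samples to animals, so p-values measure the spread between these samples only.

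As background, the intrinsic pathway of apoptosis is controlled by the BCL2 family. BH3-only proteins such as PUMA (encoded by Bbc3), BIM (Bcl2l11) and BID sense damage and neutralize pro-survival members such as BCL-XL (Bcl2l1) and MCL1, after which effector members permeabilize the outer mitochondrial membrane. Released cytochrome c then assembles APAF1 and an initiator caspase into the apoptosome, which activates the executioner caspases. Death receptors reach the same executioners through FADD and another initiator caspase. The transcription factor p53 feeds into both arms and also drives growth arrest and repair genes such as Gadd45a, while MDM2 marks p53 for degradation. Chondrocyte death and senescence are both features of osteoarthritic cartilage. The comparison asks which genes differ when chondrocytes lack Sirt6, a histone deacetylase.

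Total counts lay between 25726958 and 30156935 a sample, and all 49 genes passed the filter on low counts, with at least 64 reads in each sample. Sirt6, the targeted gene, fell from 375 ± 46.1 CPM (read counts scaled to library size with edgeR's TMM factors; mean ± SD, n = 3) in WT to 29.0 ± 6.94 in Sirt6 cKO chondrocytes. WT replicate 1 stood apart from WT replicates 2 and 3. Its log2 CPM correlated with theirs at 0.972 and 0.974 across genes, against 0.996 between replicates 2 and 3, and relative to them it held fewer reads on long genes (Spearman's rho of the log2 ratio with summed exon length -0.478 over 6615 genes). Results are therefore also given without it where that changes a call. Of 17 chondrocyte markers, 5 had usable rows (Col2a1 and Acan were not analysed here). Their summed level was 199 to 217 CPM in WT and 393 to 492 CPM in Sirt6 cKO samples, with 4 genes higher and 0 lower at the threshold given below. Sox9 made up most of the WT sum (185 to 204 CPM). Col9a3 did not pass, but every Sirt6 cKO sample (3.31 to 4.96 CPM) lay below every WT sample (5.49 to 6.27 CPM). Of 10 synovial fibroblast markers, 8 were measured, with summed levels of 11205 to 11485 CPM in WT and 36197 to 41742 CPM in Sirt6 cKO samples, where 5 were higher and 0 lower, and of these Lum had 0, 4 and 4 reads in WT. Col1a1 and Col1a2 made up most of these sums. Has1, Pdpn and Thy1 did not pass, and Pdpn was lower in every Sirt6 cKO sample than in any WT sample. Of 10 macrophage markers only Cd68 was measured, with 0.205 to 1.73 CPM over all samples, and of 6 osteoblast markers Runx2 and Spp1 were measured, of which Spp1 was higher. These marker shifts accompany every genotype difference below, and their part in them was not tested. In such bulk samples, fewer cells of a type and less RNA per cell cannot be told apart.

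In the comparison of Sirt6 cKO with WT chondrocytes, 8 of the 49 genes were higher and 14 lower, and 27 did not pass the threshold (adjusted p under 0.05 by Benjamini-Hochberg over 11246 genes, from the quasi-likelihood test of edgeR). The 22 called genes are 44.9% of the members, beside 46.8% of all tested genes. Higher genes made up 16.3% and lower genes 28.6%, beside 22.5% and 24.3% of all tested genes, so these shares lie near the background. The same shares are the background of the counts by role given below. With a fold change over 2 as well, 5 were higher (Gadd45a, Sesn3, Btg1, Dram2 and Casp4) and 4 lower (among them Bok, Bcl2l1 and Aen). These are 18.4% of the members against 15.9% of all tested genes, with 8.72% higher and 7.15% lower. Without WT replicate 1 the numbers past a fold of 2 were 4 higher and 3 lower (beside 8.41% and 6.5% of all tested genes), since Dram2 (0.98 on the log2 scale), Casp4 (0.94) and Aen (-0.97) then lay under it and Bbc3 (1.15) over it, all 4 still with an adjusted p under 0.05. The median log2 change (log2 of the fold of Sirt6 cKO over WT) was -0.19 over the members and 0.0021 over all tested genes. Sirt6 cKO samples did not overlap WT samples in 27 members (55.1%, 8 higher and 19 lower), beside 60.9% of all tested genes (30.2% higher and 30.6% lower). A gene without overlap has p = 0.1 in a two-sided exact test by permutation, and 3 samples a group allow no smaller value. With the replicate number as a block, 8 members were higher and 17 lower, beside 25.6% and 25.5% of all tested genes. The number of lower members was 9 without Sirt6 cKO replicate 1, beside 17.1% of all tested genes, and 20 without WT replicate 1, beside 27.8%. The members' count and the share of all genes thus moved in the same direction, and whether by a like amount was not tested.

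**Figure D1:**
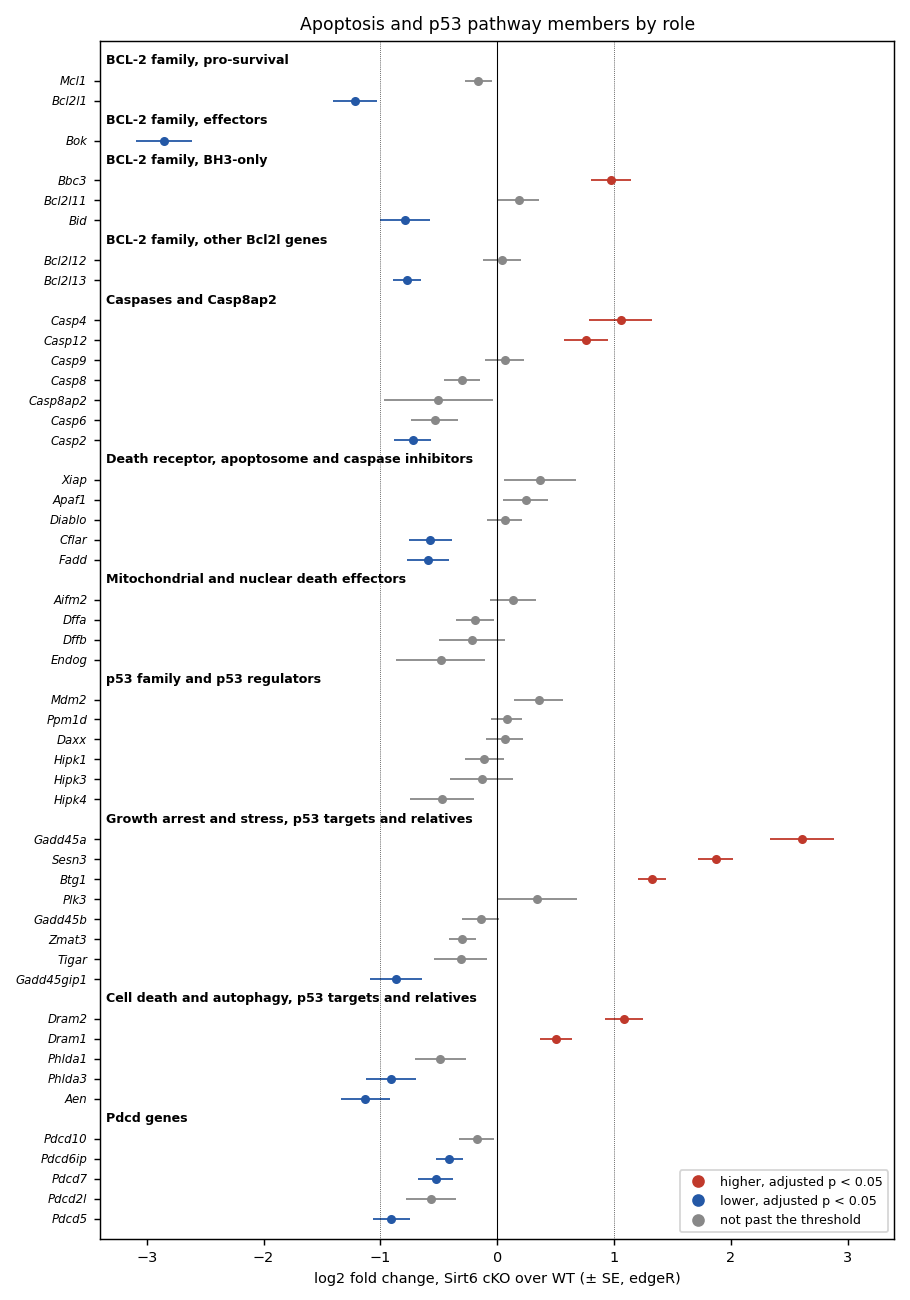
Log2 fold change of Sirt6 cKO over WT for 48 of the 49 genes, grouped by role, with bars of ± SE from edgeR. Red and blue points passed an adjusted p of 0.05, grey points did not, and dotted lines mark a fold of 2. Bok lies furthest to the left at -2.85 and Gadd45a furthest to the right at 2.61.

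The BCL2 family moved in both directions. Its pro-survival member Bcl2l1 fell 2.33-fold, the effector Bok fell 7.23-fold and the BH3-only gene Bbc3 rose 1.96-fold, while Mcl1 and Bcl2l11 did not pass the threshold. Bok (ENSMUSG00000026278, chromosome 1 from 93685694 to 93695762), which encodes an effector related to BAX and BAK, was read at 111, 63.2 and 67.7 CPM in the WT samples and at 9.72, 11.3 and 12.5 CPM in the Sirt6 cKO samples. No Sirt6 cKO sample reached the level of any WT sample, and the Sirt6 cKO samples were close to one another. Its means were 80.7 ± 26.6 and 11.2 ± 1.39 CPM (SD, n = 3), a log2 change of -2.85 (SE 0.24, adjusted p = 4.95e-05). WT replicate 1 held the highest value, and without it the log2 change was -2.55 (adjusted p = 3.08e-06).

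Bcl2l1 (ENSMUSG00000007659, chromosome 2 from 152780668 to 152831728), the gene of BCL-XL, was read at 205, 142 and 148 CPM in WT and at 66.4, 62.4 and 84.1 CPM in Sirt6 cKO samples. The groups did not overlap, and the highest Sirt6 cKO value came from replicate 3. This was a log2 change of -1.22 (SE 0.19, adjusted p = 0.00114). Mcl1, a short-lived pro-survival protein's gene, had 271, 248 and 251 CPM in WT and 239, 219 and 229 CPM in Sirt6 cKO samples, with a log2 change of -0.16 (SE 0.12, adjusted p = 0.273). All 3 Sirt6 cKO samples of Mcl1 lay below all WT samples, by a small margin. Per kilobase of exon, Mcl1 stood at 73.6 and 65.7 CPM in WT and Sirt6 cKO, and Bcl2l1 at 36.0 and 15.5 CPM.

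Among BH3-only genes, Bbc3 (ENSMUSG00000002083, chromosome 7 from 16309616 to 16318205), the p53 target that encodes PUMA, was read at 49.2, 36.5 and 34.6 CPM in WT and at 83.5, 83.1 and 69.4 CPM in Sirt6 cKO samples. Every Sirt6 cKO sample was above every WT sample. The log2 change was 0.97 (SE 0.17, adjusted p = 0.00214), just under a fold of 2, and it was 1.15 without WT replicate 1 (adjusted p = 9.99e-05). Bcl2l11, the gene of BIM, had 38.0, 50.0 and 41.0 CPM in WT and 53.1, 54.7 and 38.7 CPM in Sirt6 cKO samples. These ranges overlapped, with a log2 change of 0.18 (SE 0.18, adjusted p = 0.421). Bid, which links death receptors to mitochondria once its product is cleaved, was lower with 57.1, 51.8 and 49.4 CPM in WT and 28.1, 22.4 and 41.1 CPM in Sirt6 cKO samples. Its Sirt6 cKO replicate 3 lay closest to WT. The log2 change was -0.79 (SE 0.21, adjusted p = 0.0161), and it no longer passed without Sirt6 cKO replicate 1 (adjusted p = 0.0620) or replicate 2 (adjusted p = 0.0545).

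Bcl2l13, whose product is a mitophagy receptor on the outer mitochondrial membrane, was lower at 162, 141 and 146 CPM in WT and 89.0, 87.9 and 86.1 CPM in Sirt6 cKO samples, a log2 change of -0.77 (SE 0.12, adjusted p = 0.00129). Bid and Bcl2l13 lie on opposite strands of chromosome 6 and share 628 exon bases, which are 17.7% and 9.06% of their exon lengths. Whether counting used strand is not given in the sources used here, so reads from the shared stretch cannot be told apart. Bcl2l12 had a log2 change of 0.039 (adjusted p = 0.859) and shares 28.9% of its exon bases with Gm15545 on the other strand. As a description chosen after the values were seen, levels per kilobase were set against each other within each sample. The level of Bbc3 per kilobase divided by that of Bcl2l1 was 0.549, 0.587 and 0.532 in the WT samples, whereas the Sirt6 cKO samples had 2.87, 3.04 and 1.89. The ratio of Bok to Bcl2l1 went the other way, with 1.74, 1.43 and 1.46 in the WT samples but 0.469, 0.579 and 0.476 in the Sirt6 cKO samples. The ratio of Bcl2l1 to Mcl1 was 0.574, 0.435 and 0.450 in the WT samples, whereas it was 0.211, 0.216 and 0.279 in the Sirt6 cKO samples. Relative to Bcl2l1, Bbc3 was higher and Bok lower in each Sirt6 cKO sample than in any WT sample. For Bbc3 this follows from the opposite changes of both genes without overlap, so the ratio restates them. Bid and Bcl2l11 were not set against Bcl2l1.

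**Figure D2:**
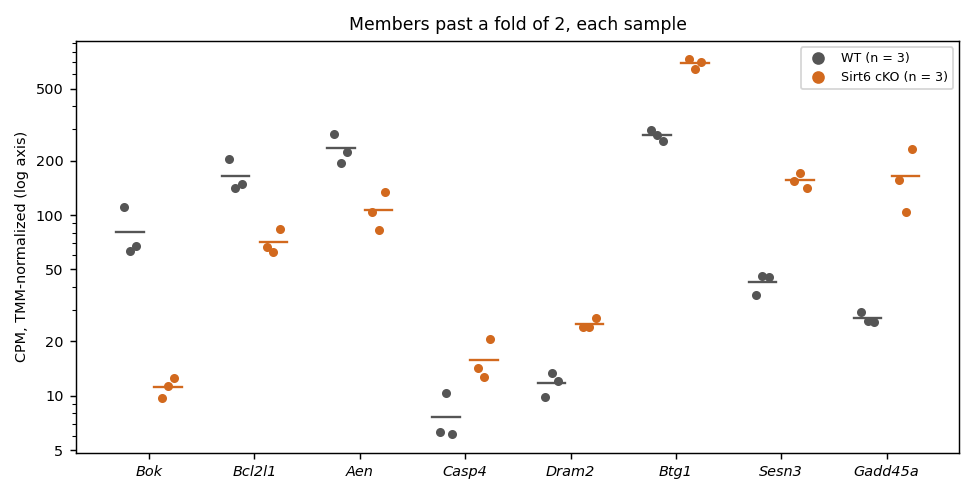
TMM-normalized CPM on a log axis of 8 of the members past a fold of 2, with 1 point for each of the 3 WT (grey) and 3 Sirt6 cKO (orange) samples and a line at each mean. The groups do not overlap in any of these 8 genes, with Casp4 the closest at 10.4 CPM in the highest WT and 12.6 CPM in the lowest Sirt6 cKO sample.

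Of 7 caspase genes, 2 rose (Casp4 and Casp12), 2 fell (among them Casp2) and 3 (Casp6, Casp8 and Casp9) did not pass the threshold, beside 22.5% of all tested genes higher and 24.3% lower. Casp2, a caspase that acts upstream after DNA damage, had 70.8, 80.0 and 85.7 CPM in WT and 51.2, 53.05 and 38.9 CPM in Sirt6 cKO samples, a log2 change of -0.72 (SE 0.16, adjusted p = 0.00627). The groups did not overlap. Casp6, an executioner caspase, had a log2 change of -0.54 with an adjusted p of 0.0531. With the replicate number as a block its adjusted p was 0.0235, and it also passed with DESeq2 (0.0392) and limma-voom (0.0466).

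The initiator caspases Casp8 and Casp9 did not pass the threshold. Casp9, the caspase of the apoptosome, had 26.1, 25.6 and 21.1 CPM in WT and 28.0, 26.9 and 21.2 CPM in Sirt6 cKO samples, with a log2 change of 0.063 (SE 0.17, adjusted p = 0.775). These values overlapped. Casp8, the caspase of death receptors, had 37.7, 52.9 and 46.5 CPM in WT and 36.9, 37.0 and 37.5 CPM in Sirt6 cKO samples, with a log2 change of -0.30 (SE 0.15, adjusted p = 0.134). Every Sirt6 cKO sample of Casp8 lay below every WT sample, by a small margin. WT replicate 1 was the WT sample nearest to the Sirt6 cKO samples, and without it Casp8 was lower at a log2 change of -0.42 (adjusted p = 0.00796). Casp8ap2, a large nuclear protein's gene that carries the name of a caspase partner and is no caspase itself, had 13.8, 68.6 and 58.7 CPM in WT and 27.1, 36.3 and 36.0 CPM in Sirt6 cKO samples. Here WT replicate 1 was the lowest of all 6 samples while the other WT samples were the highest. The log2 change was -0.51 (SE 0.47, adjusted p = 0.397) with all samples and -0.94 (adjusted p = 0.000865) without WT replicate 1.

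Both caspases that rose belong to the inflammatory branch, which acts in pyroptosis and stress of the endoplasmic reticulum more than in classical apoptosis. Casp4 (ENSMUSG00000033538, chromosome 9 from 5308828 to 5336783), which senses bacterial lipopolysaccharide in the cytosol, was read at 6.27, 10.4 and 6.15 CPM in WT and at 14.2, 12.6 and 20.6 CPM in Sirt6 cKO samples, a log2 change of 1.06 (SE 0.27, adjusted p = 0.0119). Casp12 (ENSMUSG00000025887, chromosome 9 from 5345430 to 5373032) had 17.7, 28.0 and 27.3 CPM in WT and 41.2, 43.1 and 39.5 CPM in Sirt6 cKO samples, a log2 change of 0.76 (SE 0.19, adjusted p = 0.0106). The 3 Sirt6 cKO values of Casp12 were close together, and WT replicate 1 was lowest in WT. Both genes stand 8646 bases apart on the same strand of chromosome 9. Each had an adjusted p under 0.05 in every alternative at that threshold, the highest being 0.0453 for Casp4 and 0.0413 for Casp12.

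In the death receptor and apoptosome group of 5 genes, Fadd and Cflar fell and Apaf1, Diablo and Xiap did not pass the threshold. Fadd, the adaptor that joins death receptors to their caspase, had 48.6, 30.98 and 36.2 CPM in WT and 24.3, 26.2 and 26.1 CPM in Sirt6 cKO samples, a log2 change of -0.60 (SE 0.18, adjusted p = 0.0248). Its call was lost without Sirt6 cKO replicate 1, 2 or 3 (adjusted p = 0.0876, 0.0685 and 0.0689). Cflar, which encodes the decoy FLIP that blocks that step, lies 36489 bases from Casp8 on chromosome 1 and had 92.7, 118 and 126 CPM in WT and 79.9, 86.7 and 59.8 CPM in Sirt6 cKO samples, a log2 change of -0.57 (SE 0.18, adjusted p = 0.0293). This call was lost without WT replicate 2 (adjusted p = 0.0789), WT replicate 3 (0.106), Sirt6 cKO replicate 1 (0.0695) or Sirt6 cKO replicate 3 (0.0930), and with upper-quartile factors (0.0583) or total counts alone (0.0564). The groups did not overlap for either gene.

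Apaf1, the scaffold of the apoptosome, had 41.2, 63.2 and 61.8 CPM in WT and 65.2, 75.7 and 55.9 CPM in Sirt6 cKO samples, with a log2 change of 0.24 (SE 0.19, adjusted p = 0.331). Xiap, a direct inhibitor of caspases, had 24.3, 63.0 and 60.3 CPM in WT and 62.0, 63.6 and 64.8 CPM in Sirt6 cKO samples. Apart from WT replicate 1, these 5 values of Xiap lay between 60.3 and 64.8 CPM. Its log2 change was 0.37 (SE 0.31, adjusted p = 0.350) with all samples and 0.041 without WT replicate 1. Diablo, whose product relieves inhibition by XIAP, had a log2 change of 0.062 (SE 0.15). The 4 genes of mitochondrial and nuclear death effectors did not pass either. Aifm2, now best known as a suppressor of ferroptosis, stood at 0.13, and the DNA fragmentation factor subunits Dffa and Dffb stood at -0.19 and -0.22. Endog, a mitochondrial endonuclease, stood at -0.48 with an SE of 0.38, on 72 to 171 reads a sample, and shares 35.7% of its exon bases with Spout1 on the other strand. Without WT replicate 1, Aifm2 was higher at 0.38 (adjusted p = 0.0165).

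**Figure D3:**
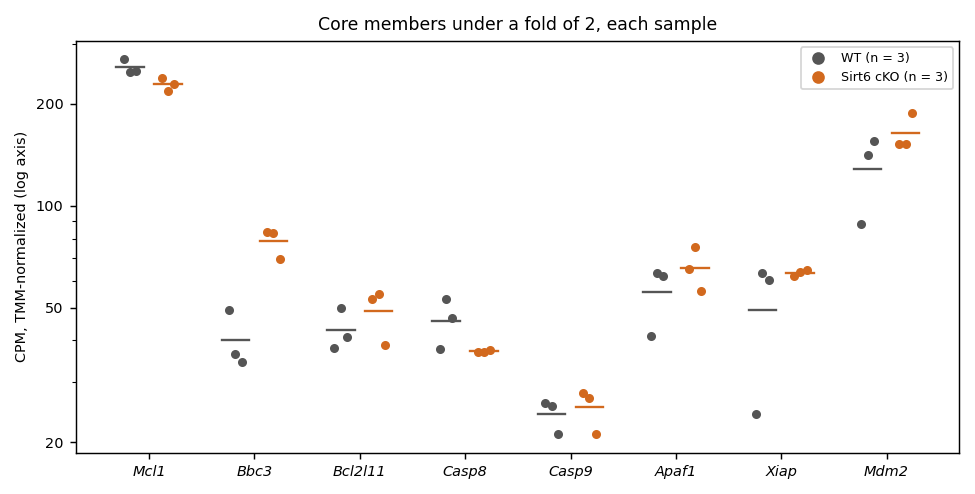
TMM-normalized CPM on a log axis of 8 core members under a fold of 2, with 1 point for each of the 3 WT (grey) and 3 Sirt6 cKO (orange) samples and a line at each mean. The groups do not overlap in Bbc3 and, by a small margin, in Mcl1 and Casp8. In Apaf1, Xiap and Mdm2, WT replicate 1 lies below the other 5 samples.

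None of the 6 measured genes of p53 regulation passed the threshold with all samples in edgeR's test, beside 46.8% of all tested genes called. Mdm2 (ENSMUSG00000020184, chromosome 10 from 117688888 to 117710758), both a p53 target and its ubiquitin ligase, had 88.1, 141 and 155 CPM in WT and 152, 152 and 188 CPM in Sirt6 cKO samples. WT replicate 1 was again the lowest sample and Sirt6 cKO replicate 3 the highest, and the log2 change was 0.35 (SE 0.21, adjusted p = 0.197). Ppm1d, the phosphatase that shuts off the damage response, stood at a log2 change of 0.081 and Daxx, a histone chaperone, at 0.066. The homeodomain-interacting kinases Hipk1, Hipk3 and Hipk4 stood at -0.11, -0.13 and -0.48. Without WT replicate 1, where 27.8% of all tested genes were lower, all 3 kinases were lower, with -0.26 (adjusted p = 0.0399), -0.42 (0.00340) and -0.70 (0.0206). At an unadjusted p under 0.05, 0 of the 6 passed with all samples, and with DESeq2 0 had an adjusted p under 0.05.

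The group of growth arrest and stress genes, which holds p53 targets and genes that share their names, held the largest increases of all 49 genes. Gadd45a, Sesn3 and Btg1 rose, Gadd45gip1 fell and the other 4 (Gadd45b, Plk3, Tigar and Zmat3) did not pass the threshold. Gadd45a (ENSMUSG00000036390, chromosome 6 from 67035096 to 67037457), a growth arrest and DNA damage gene also induced by p53-independent stress signals, was read at 29.2, 26.0 and 25.7 CPM in WT and at 156, 104 and 233 CPM in Sirt6 cKO samples. WT samples lay close together while Sirt6 cKO samples spread widely, with replicate 3 at the top and replicate 2 at the bottom. The means of 27.0 ± 1.91 and 165 ± 64.9 CPM (SD, n = 3) gave a log2 change of 2.61 (SE 0.27, adjusted p = 0.000147). Leaving out any 1 sample moved the log2 change between 2.29 and 2.85. Gadd45a shares 19.1% of its exon bases with E230016M11Rik on the other strand.

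Its relative Gadd45b had 56.8, 41.2 and 44.6 CPM in WT and 46.4, 43.2 and 39.6 CPM in Sirt6 cKO samples, with a log2 change of -0.14 (SE 0.16, adjusted p = 0.485). The genotypes overlapped for Gadd45b and did not for Gadd45a. Gadd45gip1, which encodes a subunit of the mitochondrial ribosome that binds GADD45 proteins and is in the group by its symbol, was lower, with 66.7, 38.9 and 37.5 CPM in WT and 26.5, 26.1 and 26.0 CPM in Sirt6 cKO samples, a log2 change of -0.86 (SE 0.22, adjusted p = 0.0126). WT replicate 1 was far above the other samples, and the log2 change was -0.54 without it (adjusted p = 0.00211). The call was lost without Sirt6 cKO replicate 3 (adjusted p = 0.0517).

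Sesn3 (ENSMUSG00000032009, chromosome 9 from 14276301 to 14326138), a stress-induced inhibitor of mTORC1 signalling that FOXO factors also drive, was read at 35.9, 46.0 and 45.6 CPM in WT and at 154, 171 and 141 CPM in Sirt6 cKO samples. The genotypes were far apart and neither spread widely. This was a log2 change of 1.87 (SE 0.15, adjusted p = 4.02e-05). Btg1 (ENSMUSG00000036478, chromosome 10 from 96617001 to 96622813), an antiproliferative gene, was read at 297, 276 and 256 CPM in WT and at 726, 647 and 703 CPM in Sirt6 cKO samples. Samples within a genotype lay close together, and the log2 change was 1.32 (SE 0.12, adjusted p = 7.80e-05). Per kilobase of exon, Btg1 went from rank 5 among the 49 genes in WT (55.2 CPM) to rank 1 in Sirt6 cKO (138 CPM), and Gadd45a from rank 21 (15.3 CPM) to rank 3 (93.3 CPM). Bok moved the other way, from rank 3 (56.4 CPM) to rank 33 (7.80 CPM).

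Against a fold of 2 as the null (edgeR's glmTreat), Gadd45a, Sesn3 and Btg1 were higher and Bok lower, which is 3 and 1 of the 49 genes beside 3.66% and 3.02% of all tested genes. Plk3, a stress-responsive polo-like kinase, had 16.6, 15.9 and 14.8 CPM in WT and 17.0, 10.8 and 32.2 CPM in Sirt6 cKO samples. Its highest value came from Sirt6 cKO replicate 3 and its lowest from Sirt6 cKO replicate 2, and the log2 change of 0.34 (SE 0.34, adjusted p = 0.431) turned to -0.17 without replicate 3. Tigar, which encodes a p53-induced regulator of glycolysis, stood at -0.31 (adjusted p = 0.278). Zmat3, a p53-induced RNA-binding protein's gene, had 164, 160.3 and 172 CPM in WT and 134, 132 and 139 CPM in Sirt6 cKO samples, without overlap, and a log2 change of -0.30 (SE 0.12, adjusted p = 0.0625). It passed without WT replicate 1 (adjusted p = 0.0165) and with DESeq2 (adjusted p = 0.0457).

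A group of p53 targets and their relatives that act in cell death and autophagy went in both directions. Dram1 and Dram2 rose, Aen and Phlda3 fell, and Phlda1 did not pass the threshold. Aen (ENSMUSG00000030609, chromosome 7 from 78895854 to 78911209), a p53-induced nuclease that degrades DNA in apoptosis, was read at 282, 195 and 224 CPM in WT and at 103, 82.2 and 135 CPM in Sirt6 cKO samples. The highest Sirt6 cKO value, of replicate 3, stayed below the lowest WT value. The log2 change was -1.13 (SE 0.21, adjusted p = 0.00278). Phlda3 (ENSMUSG00000041801, chromosome 1 from 135766119 to 135769136), a p53-induced inhibitor of AKT, was read at 406, 244 and 246 CPM in WT and at 163, 139.8 and 174 CPM in Sirt6 cKO samples, a log2 change of -0.91 (SE 0.21, adjusted p = 0.00806). WT replicate 1 was far above the other WT samples, and without it the log2 change was -0.63 (adjusted p = 0.00140). Phlda3 was the most abundant member per kilobase in WT, at 192 CPM.

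Phlda1 had 68.6, 55.6 and 55.4 CPM in WT and 37.2, 32.9 and 58.1 CPM in Sirt6 cKO samples. Sirt6 cKO replicate 3 lay within the WT range, whereas replicates 1 and 2 lay below it. The log2 change of -0.49 (SE 0.22, adjusted p = 0.0965) was -0.76 without Sirt6 cKO replicate 3 (adjusted p = 0.0129), and it passed with the replicate block (adjusted p = 0.0374). Dram2 (ENSMUSG00000027900, chromosome 3 from 106547693 to 106574845), a lysosomal membrane protein's gene that is grouped here by its family and is not known as a p53 target, was read at 9.84, 13.4 and 12.1 CPM in WT and at 24.1, 24.1 and 26.8 CPM in Sirt6 cKO samples, a log2 change of 1.09 (SE 0.16, adjusted p = 0.00102). Its lowest Sirt6 cKO sample was well above its highest WT sample. Dram1, the p53-induced autophagy gene of the same family, had 17.4, 18.1 and 19.1 CPM in WT and 25.8, 24.2 and 27.6 CPM in Sirt6 cKO samples, a log2 change of 0.51 (SE 0.14, adjusted p = 0.0154). Without Sirt6 cKO replicate 1 its adjusted p was 0.0615.

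The 5 measured Pdcd genes share a name (programmed cell death) more than a function, and 3 of them were lower, beside 24.3% of all tested genes. Pdcd5, a gene upregulated in dying cells, fell most, with 28.4, 22.9 and 21.3 CPM in WT and 13.1, 12.3 and 13.2 CPM in Sirt6 cKO samples, a log2 change of -0.91 (SE 0.16, adjusted p = 0.00218). WT values were more spread than the Sirt6 cKO values, and the groups did not overlap. Pdcd7, a component of the minor spliceosome, had a log2 change of -0.53 (adjusted p = 0.0194) and Pdcd6ip, the gene of the membrane-remodelling protein ALIX, of -0.41 (adjusted p = 0.0201). Pdcd7 lost its call without Sirt6 cKO replicate 1 (adjusted p = 0.0835) or replicate 2 (0.0661). Pdcd6ip lost its call without WT replicate 2 (0.0646), WT replicate 3 (0.0794), Sirt6 cKO replicate 1 (0.108) or Sirt6 cKO replicate 2 (0.0838). Pdcd2l, at -0.57 (adjusted p = 0.0542), passed with the replicate block (adjusted p = 0.0404), with DESeq2 (0.0347) and without WT replicate 2 (0.0309). Pdcd10 stood at -0.18 (adjusted p = 0.362).

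The members differed in how far WT replicate 1 departed from the other WT samples, and summed exon length went with that departure. The log2 ratio of WT replicate 1 to the mean of WT replicates 2 and 3 fell with exon length over the 49 genes (Spearman's rho -0.506, a description over genes that share the same 3 libraries). Casp8ap2 (6826 bases), Xiap (9262 bases) and Hipk3 (7987 bases) had ratios of -2.21, -1.35 and -1.15. The short genes Endog (1063 bases), Bok (1432 bases) and Phlda3 (1559 bases) had ratios of 0.92, 0.77 and 0.73. Over all 6615 tested genes in the kept rows, the median ratio was 0.35 in the 1323 shortest genes and -0.32 in the 1323 longest. Sirt6 cKO replicate 1 showed the same sign against the other Sirt6 cKO samples at a smaller size, with medians of 0.075 and -0.068. Without WT replicate 1, 9 members were higher and 20 lower, beside 27.5% and 27.8% of all tested genes. All 22 calls made with 6 samples kept their direction and passed again, and the 7 gained were Casp8, Casp8ap2, Hipk1, Hipk3, Hipk4 and Zmat3 as lower and Aifm2 as higher. The median exon length was 2932 bases in the 8 higher members, 3727 in the 14 lower and 3540 in the 27 others.

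**Figure D4:**
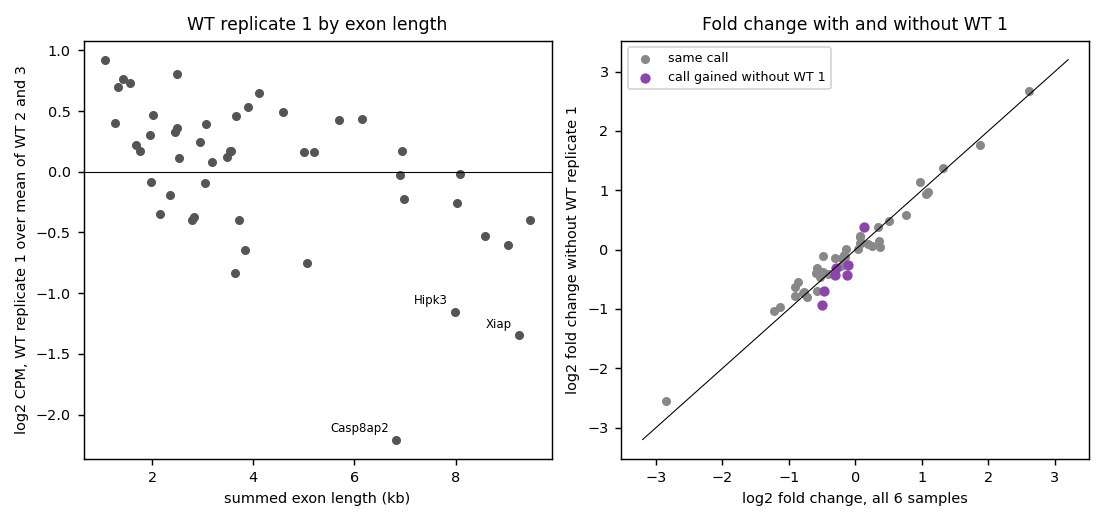
Left, the log2 CPM ratio of WT replicate 1 to the mean of WT replicates 2 and 3 against summed exon length in kilobases, 1 point for each of 48 members, with the 3 lowest ratios named. Right, the log2 change without WT replicate 1 against that with all 6 samples, where the line marks equality and the 7 purple points are members called only without that sample.

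Samples also differed within the Sirt6 cKO group. The median coefficient of variation over the 49 genes was 15.4% among WT and 10.2% among Sirt6 cKO samples. It was highest for Casp8ap2 in WT (62.1%) and for Plk3 in Sirt6 cKO (55.2%). Among Sirt6 cKO samples, replicate 3 held the highest value in 22 members and the lowest in 20, replicate 2 in 14 and 20, and replicate 1 in 13 and 9.

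Other genes of apoptosis and the p53 pathway were taken from a list of 82 genes, of which 41 had usable rows. Of these, 7 were higher and 13 lower (17.1% and 31.7%, beside the 22.5% and 24.3% given above), with a median log2 change of -0.29. Past a fold of 2 were 5 higher and 6 lower (26.8% together, beside 15.9% of all tested genes, with 8.72% higher and 7.15% lower). Without WT replicate 1, 7 were higher and 17 lower, beside 27.5% and 27.8% of all tested genes, and the 4 gained were Atm (-0.87 on the log2 scale, adjusted p = 0.000386), Stk17b (-0.63, 0.0205), Bag4 (-0.42, 0.0222) and Bcap31 (-0.32, 0.0317). Trp53inp1 (0.92), Mapk9 (0.88) and Pml (-0.98) then lay under a fold of 2. With the replicate block, 9 were higher and 14 lower, beside 25.6% and 25.5% of all tested genes, and the 3 gained were Ddb2 (0.52, adjusted p = 0.0462), Trp53bp2 (0.43, 0.0419) and Tradd (-0.50, 0.0284). The 5 that rose past a fold of 2 were Trp53inp2 (3.82 on the log2 scale, SE 0.16), Ddit4 (1.70), Ccng2 (1.31), Trp53inp1 (1.31) and Mapk9 (1.07). Trp53inp2, which acts in autophagosome formation, was read at 14.0, 15.0 and 12.8 CPM in WT and at 188, 178 and 223 CPM in Sirt6 cKO samples. Its adjusted p was 2.48e-06, and the groups were far apart. Ddit4, a stress-induced inhibitor of mTORC1 like the sestrins, was read at 100.4, 70.9 and 75.1 CPM in WT and at 316, 239.9 and 246 CPM in Sirt6 cKO samples (adjusted p = 0.000172), and Sesn2, a sestrin, rose with a log2 change of 0.76 (adjusted p = 0.00565). Trp53inp1 had an adjusted p of 0.0270 and lost its call without Sirt6 cKO replicate 1 (adjusted p = 0.0508), replicate 2 (0.0925) or replicate 3 (0.0518).

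The 6 that fell past a fold of 2 were Birc5 (-2.27 on the log2 scale), Ckap2 (-2.02), Parp1 (-1.26), Chek2 (-1.22), Mlkl (-1.04) and Pml (-1.004). Birc5, the gene of survivin, which acts in mitosis as well as in caspase inhibition, was read at 190.3, 163 and 173 CPM in WT and at 37.8, 38.1 and 33.5 CPM in Sirt6 cKO samples (adjusted p = 9.35e-06). No overlap was seen for it. Chek2, the checkpoint kinase that phosphorylates p53, had an adjusted p of 0.000350, and Mlkl, the executioner of necroptosis, of 0.000265. Eda2r, a p53 target of the tumour necrosis factor receptor family, fell by less than a fold of 2, at a log2 change of -0.84 (adjusted p = 0.00205).

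**Figure D5:**
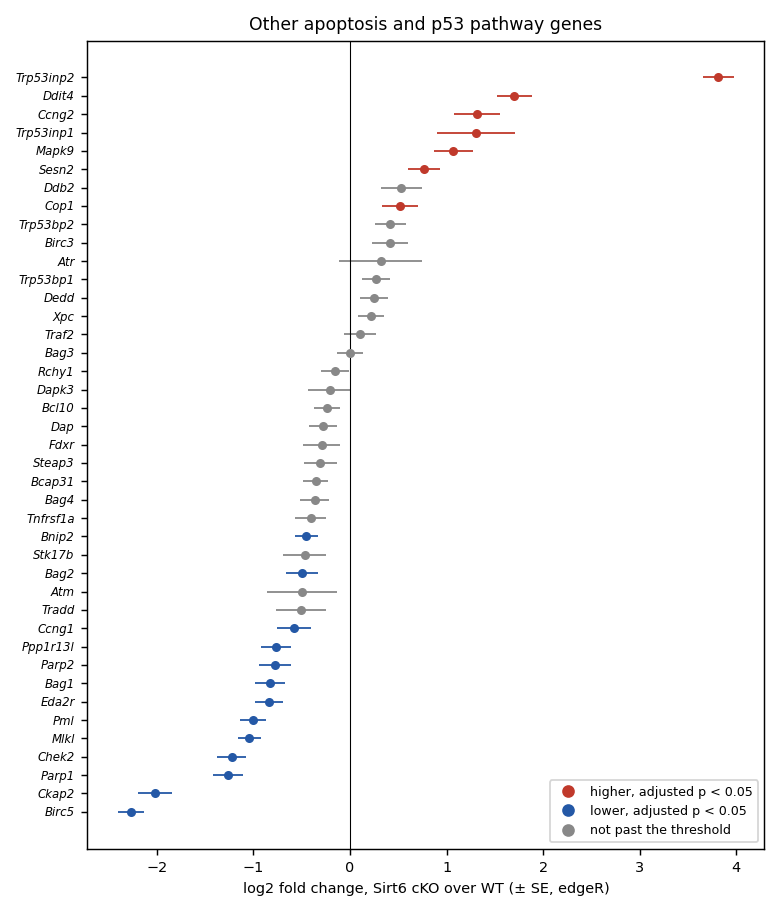
Log2 fold change of Sirt6 cKO over WT for 41 other apoptosis and p53 pathway genes, with bars of ± SE from edgeR. Red and blue points passed an adjusted p of 0.05 (7 higher and 13 lower) and grey points did not, and Trp53inp2 lies furthest to the right at 3.82 and Birc5 furthest to the left at -2.27.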

How the data were processed

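RNA-seq of chondrocytes from 3 WT and 3 Sirt6 cKO samples was analysed. The authors deposited raw read counts per Ensembl gene, with exon positions and summed exon length, and no normalization. The submitters' processing notes name cutadapt, HISAT2 2.0.5, StringTie and the build hg19, a human build, without roles. Gene positions are those of GRCm38. The counter and strand setting are not given in the sources used here, and the labels and the methods name different library kits. A row took the symbol of the RefSeq gene (GRCm38.p6) whose span it shared by 0.5 or more of their union, and 10609 of 11659 rows were named.

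Counts of the whole table were fitted with edgeR 4.0.16 in R 4.3.3 (TMM, filterByExpr, glmQLFit, glmQLFTest, with a term for genotype alone) and adjusted over 11246 genes. SEs were derived from the log2 fold change and its F statistic. On simulated data, 166 of 200 changed genes and 15 unchanged genes were called among 11115 tested. Members and lists were chosen with earlier results of these data known. Some items are not reported here. Otherwise, values in every sample are given for members past an adjusted p of 0.05 and a fold of 2 with a mean of at least 10 counts, and for core members. Those of several other members are given too, chosen after their values were seen. Of the other pathway genes, the 10 with the largest changes past a fold of 2 are named by rule, and Pml, Eda2r, Sesn2, Atm, Stk17b, Bag4, Bcap31, Ddb2, Trp53bp2 and Tradd were added after their values were seen.

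Deviations from the genotype means correlated positively between same-numbered WT and Sirt6 cKO samples (across genes, r = 0.332 for replicate 1, 0.114 for replicate 2 and 0.166 for replicate 3). Of the mismatched pairs, WT replicate 2 with Sirt6 cKO replicate 3 had r = 0.0981, close to the value of replicate 2. WT replicate 3 with Sirt6 cKO replicate 2 had 0.0441, and the others were negative, down to -0.298. Deviations from a mean of 3 samples depend on one another, so pairing beyond replicate 1 is not established. The replicate numbers come from the labels, and no shared litter or batch is stated, so the number served as a block in an alternative fit. Other alternatives were DESeq2 1.42.0, limma-voom (limma 3.58.1), RLE or upper-quartile factors, scaling by totals, an unfiltered table, a minimum of 10 counts throughout, each sample left out, the kept rows only, an adjusted p under 0.01 and glmTreat. Sequences of the members were not used here.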

Additional observations from a re-analysis of the deposited data

How the results depend on the processing

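Of the 22 members called with all samples, 15 passed an adjusted p of 0.05 in the same direction in every alternative at that threshold (7 of 8 higher and 8 of 14 lower). The share of all tested genes that did so was not computed, so these counts describe single calls and no trait of the members. At an adjusted p under 0.01 the numbers were 5 higher and 8 lower (beside 13.1% and 14.5% of all tested genes), and with glmTreat against a fold of 2 they were 3 higher and 1 lower (beside 3.66% and 3.02%). Leaving out each sample gave 7 to 9 higher and 9 to 20 lower members, beside 15.8% to 27.5% and 16.9% to 27.8% of all tested genes, and 4 to 5 higher and 3 to 6 lower past a fold of 2, beside 8.41% to 10.3% and 6.5% to 8.05%. With the replicate number as a block, 8 members were higher and 17 lower (beside 25.6% and 25.5% of all tested genes). The block changed the calls of Casp6, Pdcd2l and Phlda1 and of no other member, and among the other pathway genes those of Ddb2, Trp53bp2 and Tradd. Sirt6 lay between -3.88 and -3.52 over these fits.

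The log2 fold changes of 8 members that did not pass the threshold turned direction when 1 sample was left out, and none passed after turning. Bcl2l12 lay between -0.019 and 0.16 (below 0 without Sirt6 cKO replicate 1 or 2). Casp9 lay between -0.017 and 0.19 (below 0 without WT replicate 3 or Sirt6 cKO replicate 1). Diablo lay between -0.0094 and 0.22 (below 0 without WT replicate 2). Dffb lay between -0.48 and 0.016 (above 0 without Sirt6 cKO replicate 3). Daxx lay between -0.016 and 0.21 (below 0 without WT replicate 2 or Sirt6 cKO replicate 1). Hipk3 lay between -0.42 and 0.066 (above 0 without WT replicate 2 or 3). Gadd45b lay between -0.22 and 0.0053 (above 0 without WT replicate 1). Plk3 lay between -0.17 and 0.64 (below 0 without Sirt6 cKO replicate 3). The cause of these changes was not tested.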
